A study of Mus musculus with 10 samples.

Results

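The genes described here build the mitotic spindle, attach chromosomes to it, hold anaphase back until attachment is complete, and then separate and divide the cell. They were taken as a list of 52 genes by symbol, and 50 of them, with 1 probe set each, were matched among the 22206 probe sets of the array. Ccnb1 and Foxm1 were not matched. The rule takes genes by name and reads no measured value, but the list was drawn up with earlier results of these data known.

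RNA was measured on 10 Clariom S arrays of bone marrow-derived macrophages (BMDMΦ) from male C57Bl/6J mice of 8 to 12 weeks, differentiated for 7 days with 25% medium of L929 cells, a source of the macrophage growth factor M-CSF. There were 2 arrays for each of 5 conditions of 48 h: not stimulated, conditioned medium (CM) of cancer-associated fibroblasts (CAFs) with Snail1 (WT CAF CM), CM of CAFs lacking Snail1 (KO CAF CM), IL4 at 10 ng/mL, and IFNγ at 100 units/mL. The macrophages were of the same kind in all 5 conditions, and the Snai1 deletion was in the CAFs according to the titles and the methods, although the sample descriptions attach the genotype to the macrophages. CM had been collected over 24 h from serum-starved CAFs, whereas not stimulated cells stayed in complete medium. No array of unconditioned starvation medium was used here, so CAF factors cannot be told apart from the change of medium, and whether M-CSF was present during the 48 h is not given in the sources used here. Nothing in the labels tells if replicate arrays stand for separate mice or cultures. The p-values therefore rest on the spread among these arrays alone, which may be technical.

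In a dividing cell, cyclin A and B bind Cdk1 to start mitosis, and Plk1 and the Aurora kinases then organize centrosomes, spindle and cytokinesis. Condensins compact the chromosomes, CENP-A marks the centromere, and the Ndc80 complex on the kinetochore grips microtubules. The checkpoint proteins Bub1, Bub1b, Bub3, Mad2l1 and Ttk restrain Cdc20 until all chromosomes are attached, after which the anaphase-promoting complex (APC/C), working with Cdc20 and the ubiquitin-conjugating enzyme Ube2c, destroys cyclin B and securin. Macrophages grown from bone marrow with M-CSF still proliferate in culture, and IFNγ, IL4 and withdrawal of growth factor are all known to slow or stop them. Many mitotic genes carry a cell cycle genes homology region (CHR) near the start of transcription, often behind CCAAT boxes, at which the DREAM complex represses them in resting cells and the MuvB core with B-MYB and FOXM1 activates them in late cell cycle.

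The promoters of 8 genes on which the results turn are shown for these elements, from 100 bases before to 50 bases after the RefSeq start on GRCm38.p6, 5′ to 3′ on the strand of the gene. Capitals mark CHR letters (TTTGAA or TTCGAA) and CCAAT boxes, each read on either strand, so that TTCAAA and ATTGG are the reverse forms.
Plk1, chr7:122159335-122159484, plus strand: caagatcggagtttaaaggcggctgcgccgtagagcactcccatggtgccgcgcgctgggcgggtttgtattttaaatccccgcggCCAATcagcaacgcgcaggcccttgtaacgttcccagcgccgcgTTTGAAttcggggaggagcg
Ube2c, chr2:164769829-164769978, plus strand: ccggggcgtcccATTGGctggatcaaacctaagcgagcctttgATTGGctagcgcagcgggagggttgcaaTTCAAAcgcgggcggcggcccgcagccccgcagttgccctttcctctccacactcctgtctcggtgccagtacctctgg
Cdc20, chr4:118437294-118437443, minus strand: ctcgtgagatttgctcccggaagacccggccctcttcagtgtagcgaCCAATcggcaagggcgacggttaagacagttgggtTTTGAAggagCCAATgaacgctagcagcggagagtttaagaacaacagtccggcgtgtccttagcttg
Ccnb2, chr9:70421505-70421654, minus strand: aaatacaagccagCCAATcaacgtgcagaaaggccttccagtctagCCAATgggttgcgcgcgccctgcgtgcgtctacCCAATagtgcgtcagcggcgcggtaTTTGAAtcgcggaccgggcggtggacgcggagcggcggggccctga
Cdk1, chr10:69352863-69353012, minus strand: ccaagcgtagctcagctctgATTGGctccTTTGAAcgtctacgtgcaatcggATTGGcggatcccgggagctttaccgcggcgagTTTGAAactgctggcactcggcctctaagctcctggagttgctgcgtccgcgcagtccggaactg
Cenpa, chr5:30666786-30666935, plus strand: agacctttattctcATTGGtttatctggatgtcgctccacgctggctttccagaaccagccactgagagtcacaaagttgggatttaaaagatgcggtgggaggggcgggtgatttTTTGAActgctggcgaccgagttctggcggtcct
Ncapg2, chr12:116405336-116405485, plus strand: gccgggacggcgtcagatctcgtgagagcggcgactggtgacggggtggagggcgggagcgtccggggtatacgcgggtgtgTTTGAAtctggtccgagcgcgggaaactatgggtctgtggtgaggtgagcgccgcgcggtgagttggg
Mybl2, chr2:163054535-163054684, plus strand: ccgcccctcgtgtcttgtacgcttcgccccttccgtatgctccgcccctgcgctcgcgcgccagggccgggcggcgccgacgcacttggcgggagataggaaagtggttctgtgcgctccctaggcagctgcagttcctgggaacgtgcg
The first 6 hold both elements in this stretch, Ncapg2 holds a CHR without a CCAAT box, and Mybl2, which encodes B-MYB, holds neither. RefSeq gave a window from 250 bases before to 50 bases after the start for 43 of the 50 genes. A CHR was found in 34 of them (79.1%), against 19.4% of all 27025 windows of this length. CCAAT was found in 29 (67.4%, against 37.9% of all windows), and both in 28 (65.1%, against 7.7%). In 31 of the 43 (72.1%, against 5.9% of all windows) a CHR began within 60 bases before the start or after it. An E2F motif (TTTCCCGC, TTTGGCGC or TTTGCCGC on either strand) was found in 4 (9.3%, against 2.0%). These matches describe letters only, and no binding was measured here.

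Values below are log2 signals made by RMA, the authors' normalization, in which a difference of 1 is a doubling. Array medians over all probe sets lay between 5.57 and 5.71, the genes' mean signals between 3.76 and 13.58, and 16 of the 50 means lay below the median of all probe sets, where differences are compressed. The file holds no detection calls, and a silent gene looks like a weakly expressed one. Replicate arrays correlated at 0.9936 to 0.9952, and the 2 WT CAF CM arrays had 39 probe sets over 4-fold apart, against 6 to 14 in the other conditions. All 8 macrophage markers measured lay above the array median on all 10 arrays (9.4 to 18.48). Fibroblast markers ranged from 3.21 to 8.01 (5 of 9 below the median on all arrays), progenitor markers from 3.63 to 6.28 (6 of 8) and lymphocyte markers from 3.02 to 5.76 (6 of 7). The log2 summed signal of the 8 neutrophil markers was 11.96 to 13.90 with CAF CM, 11.24 and 11.85 in not stimulated cells, 11.19 and 11.45 with IL4 and 9.0 and 9.08 with IFNγ, and that of 4 monocyte markers was 10.82 to 13.11 with CAF CM, 9.99 and 10.14 in not stimulated cells, 11.35 and 11.39 with IL4 and 12.17 and 12.32 with IFNγ. Within these lists the markers did not move together. S100a8 had signals of 10.23 to 12.88 with CAF CM and 5.73 to 7.76 elsewhere, whereas Mmp8 had 13 and 12.86 with WT and 10.25 and 10.15 with KO CAF CM and 11.68 and 11.01 in not stimulated cells, and the other 6 neutrophil markers lay between 3.30 and 7.09 on all arrays. Ly6c2 had 10.71 to 13.06 with CAF CM and 4.96 to 9.95 elsewhere. Ccr2 had 5.11 to 8.04 with CAF CM against 9.82 and 9.68 in not stimulated cells, and Plac8 and Fn1 lay between 4.24 and 5.18 in both. With IL4, Fn1 had 10.64 and 10.45, Ccr2 9.87 and 10.27, Ly6c2 5.67 and 4.96, and Plac8 4.57 and 4.34. With IFNγ, Ccr2 had 11.94 and 11.95, Ly6c2 9.95 and 8.99, Plac8 7.45 and 6.78, and Fn1 4.54 and 4.41. The log2 summed signal of the 6 dendritic cell markers, 13.03 and 13.48 with IFNγ and 6.94 to 7.44 elsewhere, was nearly all Clec9a (13.45 and 12.99 with IFNγ, 3.72 to 4.41 elsewhere). Xcr1 had 6.21 and 6.47 with IFNγ and 3.58 to 4.26 elsewhere, and the other 4 lay between 3.34 and 6.68 on all arrays. The part of these markers in the results below was not tested. Snai1 itself had signals of 4.13 to 4.93 in the macrophages of all 5 conditions, which does not check the deletion in the CAFs.

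Against the mean of the not stimulated arrays, the median of the 50 genes was -0.76 and -1.0 on the WT CAF CM arrays, -1.21 and -1.07 on the KO CAF CM arrays, -0.59 and -0.53 on the IL4 arrays, and -0.15 and 0.09 on the IFNγ arrays. Of the 50 genes, 44 to 47 lay under the not stimulated mean on each CAF CM array, 44 or 45 on each IL4 array, and 30 and 22 on the IFNγ arrays. In bulk RNA, fewer dividing cells and less RNA per dividing cell cannot be told apart.

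**Figure D1:**
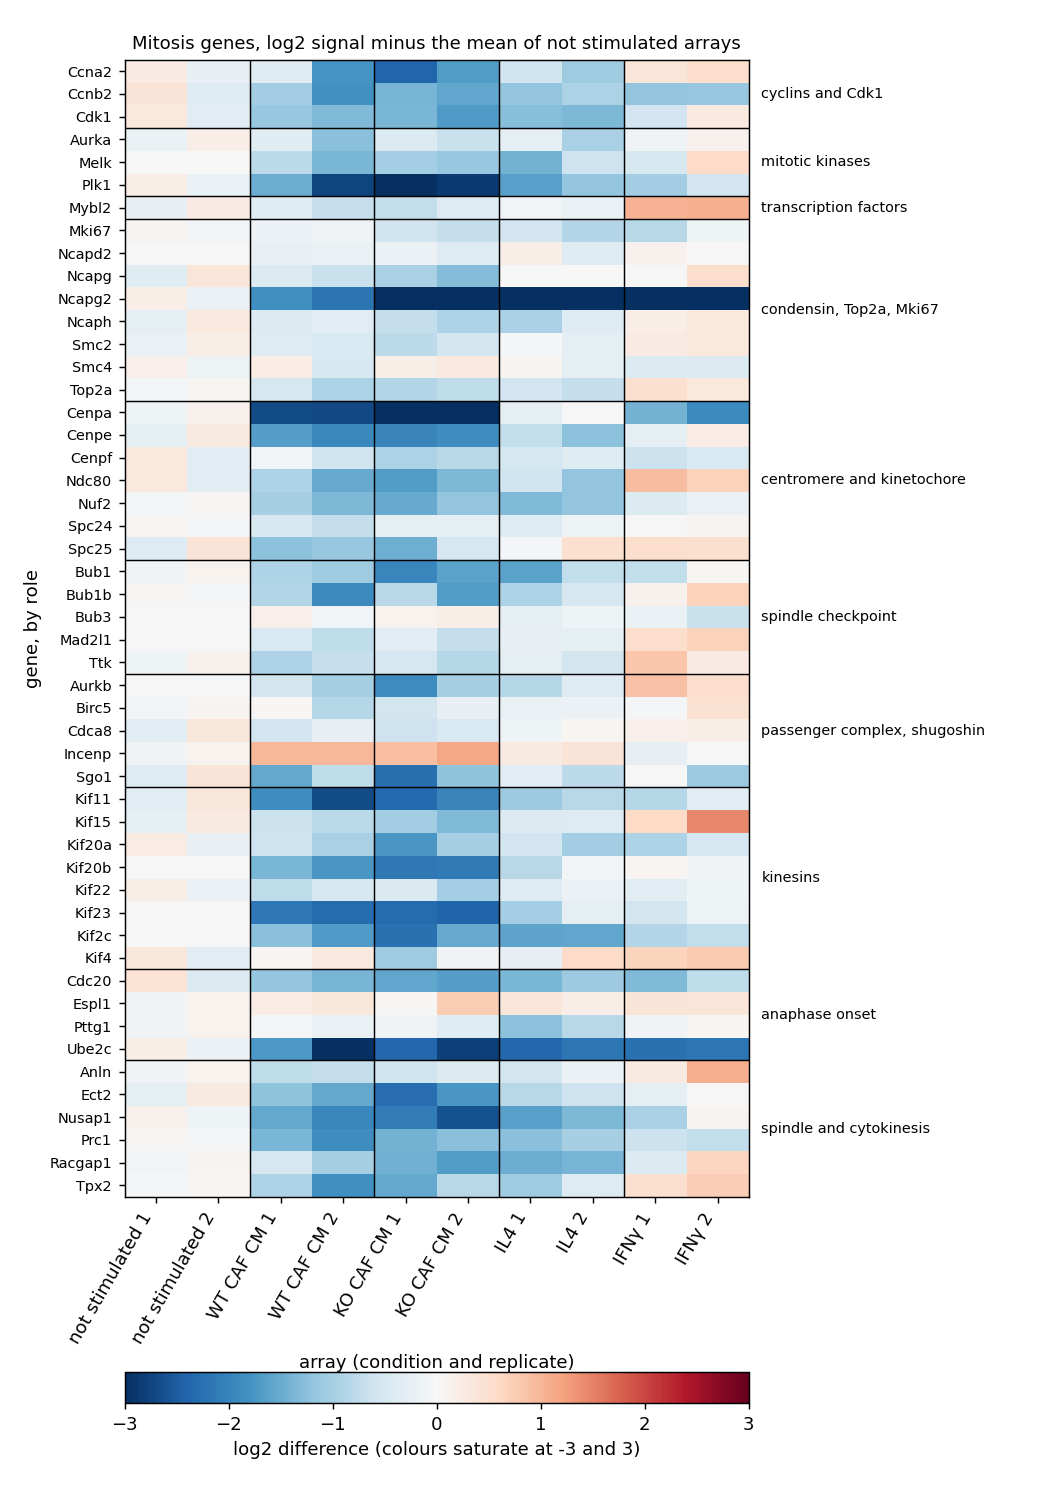
Each row is 1 of the 50 mitosis genes, grouped by role, and each column 1 array, with replicate numbers after the condition. Colour gives the log2 signal minus the mean of the 2 not stimulated arrays, saturating at -3 and 3. The 4 CAF CM columns are blue for most genes, the IL4 columns paler, and the IFNγ columns mixed, with Ncapg2, Ube2c and Cenpa blue in both IFNγ columns.

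With WT CAF CM, mitotic genes fell across most roles: 21 of the 50 (42%) were called lower and 1 (2%) higher at an adjusted p under 0.05 (limma, Benjamini-Hochberg over all probe sets), against 4.47% of all probe sets lower and 4.08% higher. With KO CAF CM, 31 (62%) were lower and 1 (2%) higher, against 8.0% and 6.83% of all probe sets. The median difference of the 50 genes was -0.81 and -1.19 with the WT and KO CAF CM, beside -0.03 and -0.01 over all probe sets. The comparisons with not stimulated cells share the same 2 control arrays. The WT CAF CM count fell from 22 to 12 without WT CAF CM replicate 2 and to 14 without not stimulated replicate 1, where 4.60% and 4.92% of all probe sets were called in either direction, against 8.56% with all arrays. Leaving out each of the 10 arrays in turn, 11 of the 22 calls with WT and 21 of the 32 with KO CAF CM held every time, and all 22 and all 32 kept their sign. The other 11 with WT CAF CM were Ccnb2, Cdk1, Bub1b, Top2a, Incenp, Cdc20, Ndc80, Spc25, Tpx2, Ect2 and Nusap1, of which 10, all but Incenp, were lost without WT CAF CM replicate 2 and 8 without not stimulated replicate 1, and the other 11 with KO CAF CM were Ccnb2, Bub1b, Kif20a, Kif15, Cenpf, Ncapg, Ncaph, Smc2, Top2a, Tpx2 and Sgo1, of which 8 were lost without not stimulated replicate 2 and 7 without KO CAF CM replicate 1.

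Among the cyclins and Cdk1, Cdk1, the kinase that drives entry into mitosis, had signals of 6.63 and 5.98 in not stimulated cells, 5.17 and 4.98 with WT CAF CM, and 4.94 and 4.61 with KO CAF CM. The CAF CM arrays lay below both controls. The difference was -1.23 (SE 0.29, adjusted p = 0.022) with WT CAF CM, a call lost without not stimulated replicate 1 or either WT CAF CM array, and -1.53 (adjusted p = 0.0039) with KO CAF CM. Ccnb2, a B-type cyclin, had signals of 8.72 and 7.97 in not stimulated cells, 7.30 and 6.52 with WT CAF CM, and 6.96 and 6.78 with KO CAF CM, differences of -1.44 and -1.48 (SE 0.29, adjusted p = 0.0081 and 0.0044). Both calls were lost without not stimulated replicate 1, and that with WT CAF CM also without WT CAF CM replicate 2. Ccna2, cyclin A2, which acts in S phase and at mitotic entry, had 6.21 and 5.72 in not stimulated cells, 5.61 and 4.20 with WT CAF CM, and 3.58 and 4.29 with KO CAF CM. Its WT CAF CM arrays were far apart, and it was called with KO CAF CM (-2.03, SE 0.40, adjusted p = 0.0045) and not with WT CAF CM (-1.06, adjusted p = 0.15).

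Plk1, the Polo-like kinase needed for spindle assembly, had signals of 8.14 and 7.73 in not stimulated cells, 6.44 and 5.18 with WT CAF CM, and 4.70 and 5.07 with KO CAF CM. All CAF CM arrays lay below both controls, and the differences were -2.13 (SE 0.36, adjusted p = 0.0029) and -3.05 (adjusted p = 0.00013). The kinases Aurka and Melk were not called in either medium, with differences of -0.81 and -0.53 for Aurka and -1.09 and -1.08 for Melk.

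At the centromere and kinetochore, 5 of 7 genes (71.4%) were called lower in each medium, against 4.47% (WT CAF CM) and 8.0% (KO CAF CM) of all probe sets. Cenpa, the histone H3 variant that marks centromeres, had signals of 9.97 and 10.23 in not stimulated cells, 7.42 and 7.39 with WT CAF CM, and 6.87 and 6.79 with KO CAF CM. The replicates of each medium lay close together and far under the controls, and the differences were -2.70 (SE 0.21, 6.48-fold lower, adjusted p = 9.1e-06) and -3.27 (9.65-fold lower, adjusted p = 1.3e-06). Cenpe, a kinesin that carries chromosomes to the spindle equator, fell by 1.79 and 1.93, and Nuf2 and Ndc80, partners in the microtubule-binding Ndc80 complex, fell by 1.18 and 1.36 and by 1.22 and 1.51. The remaining subunits of that complex were less even: Spc25 was called only with WT CAF CM (-1.18, adjusted p = 0.047, against -0.99 and 0.07 with KO CAF CM), and Spc24 in neither (-0.60 and -0.29). Cenpf was called only with KO CAF CM (-0.89).

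Of the 8 kinesins, 4 (50%) were called lower with WT and 6 (75%) with KO CAF CM, against 4.47% and 8.0% of all probe sets. Kif11, the motor that pushes spindle poles apart, had signals of 7.21 and 7.91 in not stimulated cells, 5.70 and 4.87 with WT CAF CM, and 5.23 and 5.58 with KO CAF CM. Its differences were -2.28 (SE 0.31, adjusted p = 0.00067) and -2.16 (adjusted p = 0.00063). Kif23, a component with Racgap1 of the centralspindlin complex that readies the cell for cytokinesis, fell by 2.23 and 2.36, Kif20b by 1.56 and 2.14, and Kif2c, which depolymerizes microtubules at centromeres, by 1.48 and 1.88. All 4 calls in each medium held when any array was left out. Kif15 and Kif20a were called only with KO CAF CM (-1.19 and -1.37), while Kif22 and Kif4 were called in neither.

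Of 5 spindle checkpoint genes 1 (20%) was called lower with WT and 2 (40%) with KO CAF CM, against 4.47% and 8.0% of all probe sets. The median differences of the 5 were -0.815 and -0.685. Bub1, a checkpoint kinase, had signals of 6.63 and 6.85 in not stimulated cells, 5.81 and 5.67 with WT CAF CM, and 4.79 and 5.13 with KO CAF CM, differences of -1.0 (SE 0.31, adjusted p = 0.076) and -1.78 (adjusted p = 0.0022). Bub1b fell by 1.40 and 1.25, calls that were lost without either not stimulated array. Mad2l1 (-0.60 and -0.51) and Ttk (-0.82 and -0.69) passed in neither. Bub3 had the highest mean signal of all 50 genes and stayed between 13.01 and 13.85 on all 10 arrays, with differences of 0.04 (95% interval -0.40 to 0.48) and 0.15 (-0.29 to 0.58). Bub3 also serves outside mitosis and is made in resting cells.

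In the chromosomal passenger complex, which corrects faulty attachments, the subunits parted. Incenp, its scaffold, was the only gene of the list called higher with CAF CM: signals of 7.80 and 7.99 in not stimulated cells became 8.90 and 8.89 with WT and 8.79 and 9.05 with KO CAF CM. Every CAF CM array lay above both controls, with differences of 1.0 (SE 0.19, adjusted p = 0.0054) and 1.03 (adjusted p = 0.0028). The first of these had an adjusted p of 0.056 without not stimulated replicate 1. Aurkb, the kinase of the complex, had 8.0 and 8.03 in not stimulated cells, 7.46 and 7.02 with WT CAF CM, and 6.12 and 7.02 with KO CAF CM, and was called only with KO CAF CM (-1.45, SE 0.29, adjusted p = 0.0057, against -0.78 and 0.15 with WT CAF CM). Birc5, or survivin, had 5.95 and 6.13 in not stimulated cells, 6.08 and 5.18 with WT CAF CM, and 5.49 and 5.79 with KO CAF CM, and neither it nor Cdca8 was called. Sgo1, shugoshin, which shields centromeric cohesin, was called only with KO CAF CM (-1.74, adjusted p = 0.019).

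At anaphase onset, Ube2c had signals of 7.96 and 7.62 in not stimulated cells, 6.06 and 4.45 with WT CAF CM, and 5.43 and 4.98 with KO CAF CM. The WT CAF CM replicates differed from each other by more than any other pair of this gene, yet both lay well below the controls, and the differences were -2.54 (SE 0.40, adjusted p = 0.0016) and -2.59 (adjusted p = 9e-04). Cdc20 had 5.68 and 4.84 in not stimulated cells, 4.09 and 3.87 with WT CAF CM, and 3.71 and 3.61 with KO CAF CM, differences of -1.28 (SE 0.28, adjusted p = 0.013) and -1.60 (adjusted p = 0.0021). The first was lost without not stimulated replicate 1 or WT CAF CM replicate 2. Securin (Pttg1) and separase (Espl1), the inhibitor and the protease that cut cohesin loose, were not called, with differences of -0.13 and -0.24 for Pttg1 and 0.29 and 0.40 for Espl1.

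For the spindle and cytokinesis, 4 of 6 genes (66.7%) were called lower with WT and 5 (83.3%) with KO CAF CM, against 4.47% and 8.0% of all probe sets. Nusap1 fell by 1.75 and 2.36, and Ect2, the exchange factor that activates RhoA at the cleavage furrow, by 1.37 and 2.01. Prc1, which bundles microtubules of the central spindle, fell by 1.62 and 1.34, and Tpx2 by 1.39 and 1.19. With WT CAF CM, the calls of Nusap1, Ect2 and Tpx2 were lost without WT CAF CM replicate 2, and that of Prc1 held. Racgap1 was called only with KO CAF CM (-1.56), and Anln, anillin, in neither. Of the genes that compact chromosomes, Top2a, topoisomerase II, had signals of 6.46 and 6.58 in not stimulated cells, 6.01 and 5.56 with WT CAF CM, and 5.63 and 5.75 with KO CAF CM, and fell by 0.74 (SE 0.20, adjusted p = 0.041) and 0.83 (adjusted p = 0.014). The first call was lost in 7 of the 10 fits without 1 array. Ncapg, Ncaph and Smc2 were called only with KO CAF CM (-1.14, -0.82 and -0.66), and Ncapd2 and Smc4 in neither. Mki67, the coat protein of mitotic chromosomes read as Ki-67, was not called: it had 9.99 and 9.84 in not stimulated cells, 9.74 and 9.82 with WT CAF CM, and 9.32 and 9.21 with KO CAF CM, differences of -0.14 (95% interval -0.65 to 0.38) and -0.65 (-1.16 to -0.14, adjusted p = 0.093). Its KO CAF CM arrays lay under the other 4.

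**Figure D2:**
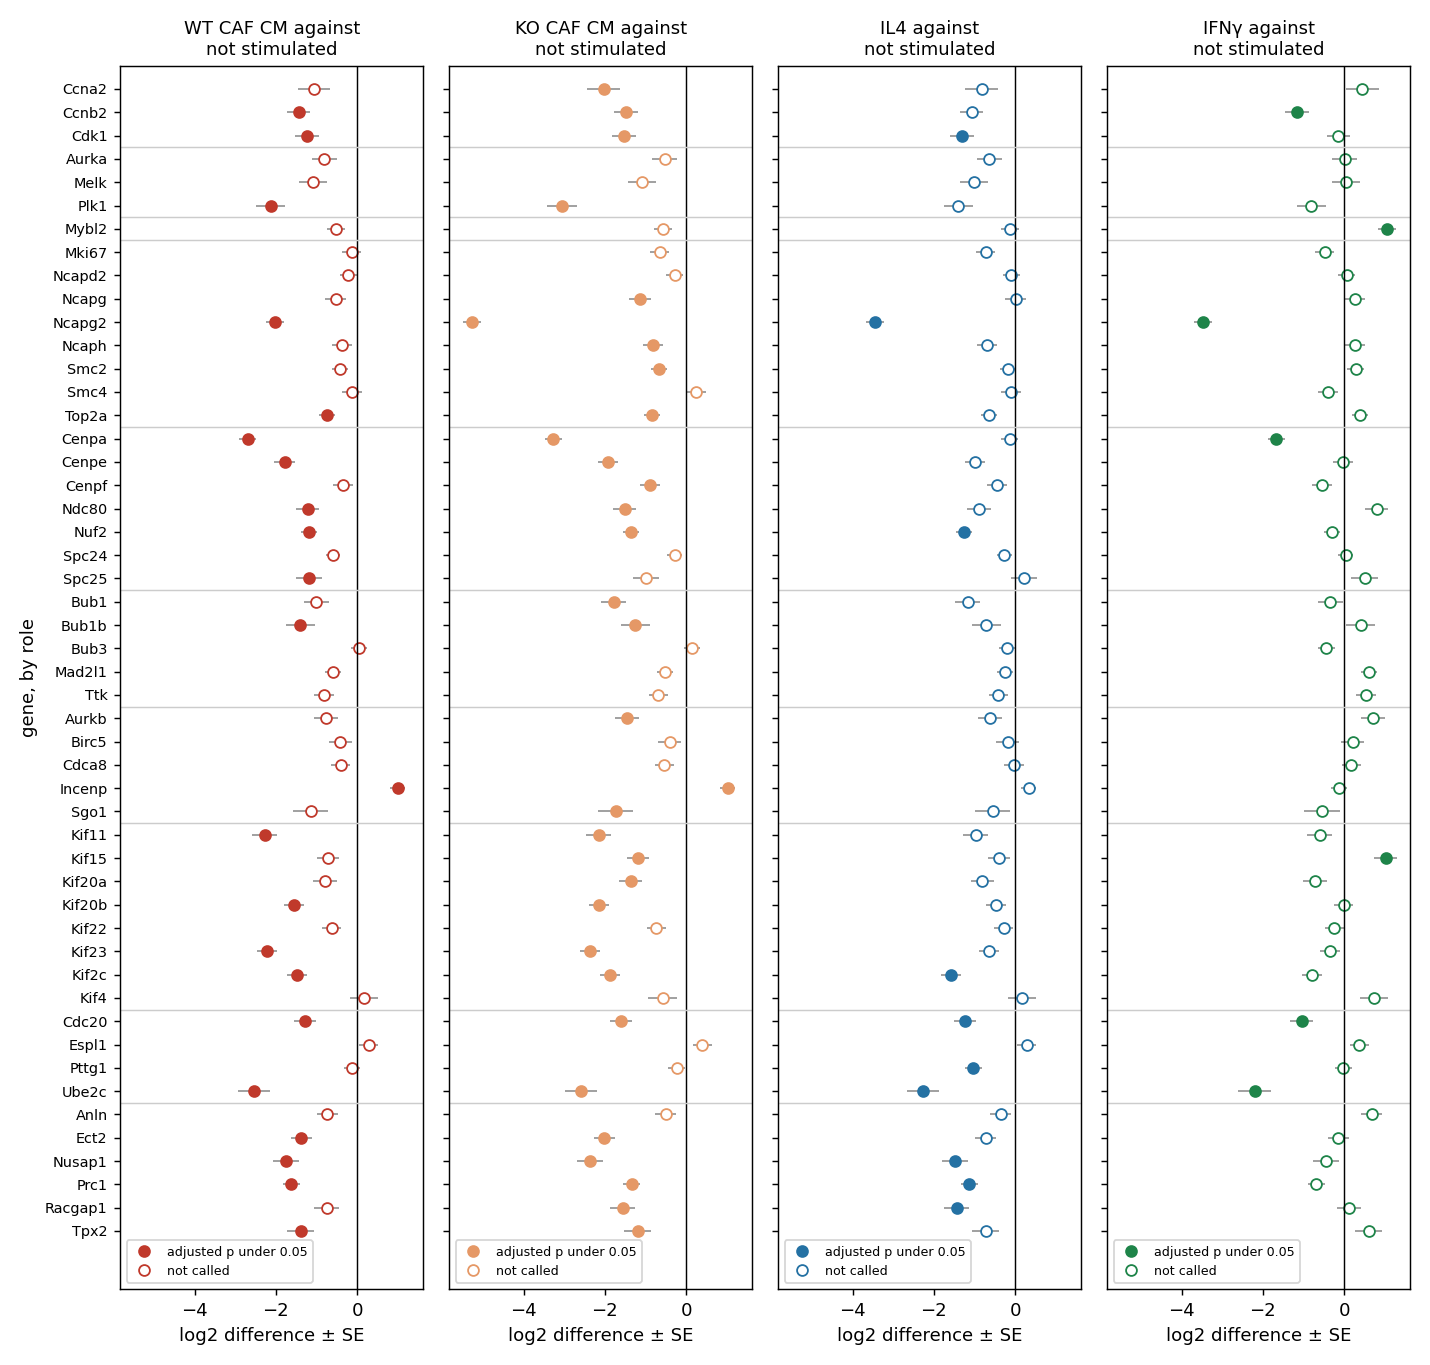
The log2 difference from not stimulated cells (x axis, ± SE from limma) of the 50 mitosis genes (y axis, by role) is drawn for the 4 conditions, each with 2 arrays against the same 2 control arrays. Filled points passed an adjusted p of 0.05: 22 with WT CAF CM, 32 with KO CAF CM, 10 with IL4 and 7 with IFNγ.

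WT and KO CAF CM were compared to ask whether Snail1 in the fibroblast changed this response. Only Ncapg2 passed the adjusted threshold: 1 of 50 genes (2%) was called higher with WT CAF CM and 0 lower, against 0.694% and 0.666% of all probe sets. At an unadjusted p under 0.05, 12 genes passed, all 12 higher with WT CAF CM, where 5.23% of all probe sets passed higher and 5.22% lower. The median difference of the 50 genes was 0.14, beside -0.01 over all probe sets, and depended on single arrays: leaving out WT CAF CM replicate 1 gave 0.06, leaving out replicate 2 of the same medium 0.36, and leaving out replicate 2 of KO CAF CM 0.23. The 95% interval of the difference lay within 1 log2 unit of 0 for 33 genes and reached further for the other 17. After Ncapg2, the smallest p-values belonged to Cenpa (0.58, SE 0.21, 95% interval 0.11 to 1.04, adjusted p = 0.33), Racgap1 (0.81, adjusted p = 0.34), Plk1 (0.93, SE 0.36, adjusted p = 0.37) and Ect2 (0.64, adjusted p = 0.37), none of which passed. Racgap1 had 6.32 and 5.82 with WT and 5.38 and 5.14 with KO CAF CM and 6.73 and 6.91 in not stimulated cells, and Ect2 had 6.36 and 6.03, 5.28 and 5.83, and 7.29 and 7.84 in that order. In both genes the WT CAF CM arrays lay between the others. Genes that were called in one medium and not in the other therefore did not pass the test of the difference between the media, Ncapg2, called in both, being the exception.

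Ncapg2, a subunit of condensin II, which starts to compact chromosomes inside the nucleus, had the largest fall of the 50 genes with KO CAF CM, IL4 and IFNγ. Its signals were 12.39 and 11.98 in not stimulated cells, 10.35 and 10.00 with WT and 6.98 and 6.86 with KO CAF CM, 8.53 and 8.96 with IL4, and 8.76 and 8.65 with IFNγ. All treated arrays lay below the controls, the KO CAF CM arrays lowest, and the replicates of each condition lay close together. The differences from not stimulated cells were -2.01 (WT CAF CM, SE 0.22), -5.27 (KO CAF CM, 38.45-fold lower), -3.44 (IL4) and -3.48 (IFNγ), with adjusted p = 0.00014, 5.5e-08, 5.9e-06 and 1.2e-06. WT CAF CM exceeded KO CAF CM by 3.26 (SE 0.22, 9.55-fold, adjusted p = 4.7e-05), which held in all 10 fits without 1 array. Ncapg, the matching subunit of condensin I, had 5.08 and 5.82 in not stimulated cells, and 5.05 and 4.79 with WT and 4.47 and 4.16 with KO CAF CM, 5.47 and 5.45 with IL4 and 5.43 and 5.98 with IFNγ. Each gene is read here by a lone probe set.

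**Figure D3:**
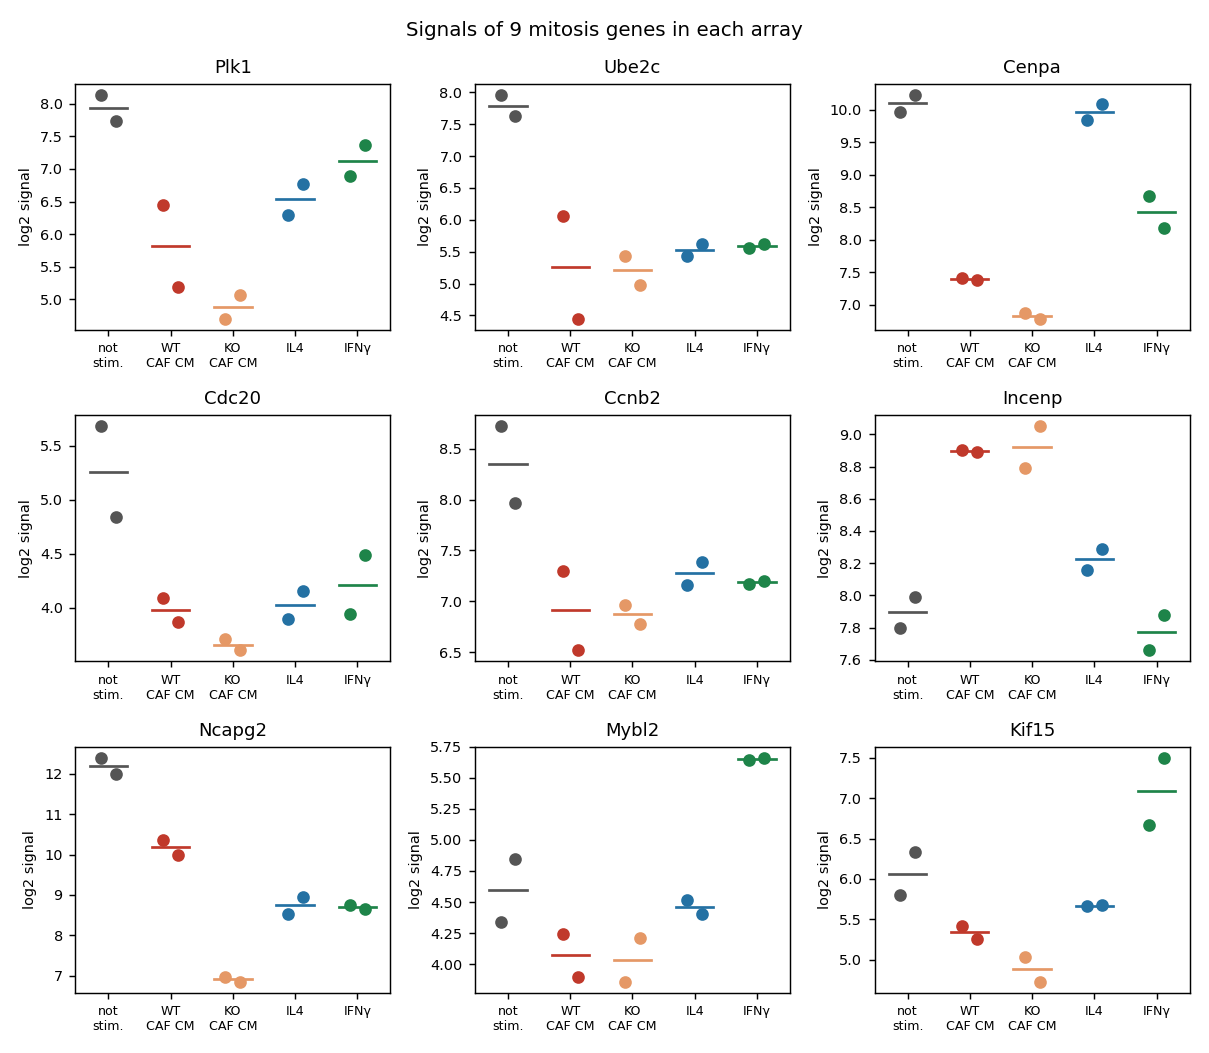
The log2 signal (y axis, which does not start at 0) of 9 mitosis genes is plotted by condition, with a point for each of the 2 arrays and a bar at their mean. Plk1, Ube2c, Cenpa, Cdc20 and Ccnb2 were highest in not stimulated cells or, for Cenpa, there and with IL4, Incenp was highest with CAF CM, Ncapg2 lowest with KO CAF CM, and Mybl2 and Kif15 highest with IFNγ.

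With IL4, 10 of the 50 genes (20%) were lower and 0 (0%) higher, against 2.38% and 1.66% of all probe sets, with a median difference of -0.64 beside 0 over all probe sets (limma, with 23 of the 50 passing at an unadjusted p under 0.05, against 15.4% of all probe sets). Only 3 calls remained without not stimulated replicate 1 and 3 without IL4 replicate 1, where 1.88% and 2.10% of all probe sets were called, against 4.04% with all arrays. Kif2c, Nuf2 and Ncapg2 held in all 10 fits without 1 array. Kif2c had signals of 6.45 and 6.41 in not stimulated cells and 4.85 and 4.86 with IL4, a difference of -1.58 (SE 0.25, adjusted p = 0.0037), and 5.17 and 4.73 with WT and 4.18 and 4.92 with KO CAF CM and 5.56 and 5.70 with IFNγ. Its replicates with IL4 were nearly equal and far from the controls. Ube2c had 5.43 and 5.62 with IL4, a difference of -2.27 (SE 0.40, adjusted p = 0.0072) that was lost without not stimulated replicate 1 or IL4 replicate 1. Cdc20 had 3.90 and 4.16 (-1.23, adjusted p = 0.03), and Cdk1 5.03 and 4.95 (-1.32, adjusted p = 0.028). Securin (Pttg1), which neither CAF CM moved past the threshold, had 11.63 and 11.86 in not stimulated cells and 10.51 and 10.92 with IL4 (-1.03, SE 0.20, adjusted p = 0.015), a call lost without either not stimulated array or IL4 replicate 1. The other calls were Nuf2 (-1.25), Prc1 (-1.13), Racgap1 (-1.44) and Nusap1 (-1.49). Cenpa stayed near the controls with 9.84 and 10.09 (-0.14, 95% interval -0.60 to 0.33). Plk1 had 6.30 and 6.77 (-1.40, adjusted p = 0.055), Ccnb2 7.16 and 7.39 (-1.07, adjusted p = 0.065) and Bub1 5.14 and 6.01 (-1.17, adjusted p = 0.063), all just outside the threshold. Mki67 had 9.34 and 9.04 (-0.73, adjusted p = 0.13), Top2a 5.95 and 5.80 (-0.65, adjusted p = 0.11), and Ccna2 5.37 and 4.91 (-0.83, adjusted p = 0.36). Aurkb had 7.15 and 7.63, Birc5 5.84 and 5.87, and Bub3 13.41 and 13.54, none of them called.

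With IFNγ, the list as a whole was centred on the controls, while some genes fell and others rose. Of the 50 genes 5 (10%) were lower and 2 (4%) higher, against 6.68% and 5.38% of all probe sets, so the shares lay near the background, and the median difference was -0.02 over the genes and over all probe sets, that of the genes ranging from -0.15 to 0.09 when single arrays were left out. The count of 7 fell to 3 without not stimulated replicate 1 and to 4 without IFNγ replicate 2, where 7.39% and 7.97% of all probe sets were called, against 12.1% with all arrays. The genes that fell were Ncapg2 (above), Ube2c, Cenpa, Ccnb2 and Cdc20. Ube2c had signals of 5.55 and 5.62 with IFNγ (-2.21, SE 0.40, adjusted p = 0.0028), and Cenpa 8.68 and 8.18 (-1.67, SE 0.21, adjusted p = 0.00024), both calls holding in all fits without 1 array. Ccnb2 had 7.17 and 7.20 (-1.16, SE 0.29, adjusted p = 0.02) and Cdc20 3.94 and 4.49 (-1.05, SE 0.28, adjusted p = 0.029). Both of these calls were lost without not stimulated replicate 1 or IFNγ replicate 1, and that of Ccnb2 also without IFNγ replicate 2. All of these IFNγ values lay below both not stimulated arrays.

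The genes that rose with IFNγ were Mybl2 and Kif15. Mybl2 had signals of 4.34 and 4.85 in not stimulated cells and 5.64 and 5.66 with IFNγ, a difference of 1.06 (SE 0.22, adjusted p = 0.0079), while it was 4.24 and 3.90 with WT and 3.86 and 4.21 with KO CAF CM, and 4.52 and 4.40 with IL4. Only the IFNγ arrays stood above the controls. All Mybl2 signals, those with IFNγ narrowly, lay below the medians of their arrays (5.57 to 5.71), where differences are compressed. Kif15, a kinesin that helps keep spindle poles apart, had 5.80 and 6.33 in not stimulated cells and 6.67 and 7.50 with IFNγ, 1.02 higher (SE 0.27, adjusted p = 0.03), and 5.42 and 5.26 with WT and 5.03 and 4.73 with KO CAF CM and 5.66 and 5.68 with IL4. Both calls were lost without not stimulated replicate 1 or IFNγ replicate 2, and that of Mybl2 also without IFNγ replicate 1. The rest did not pass: Cdk1 had 5.73 and 6.60 with IFNγ, Plk1 6.89 and 7.37 (-0.81, adjusted p = 0.21), Ccna2 6.33 and 6.50 (0.45), Top2a 6.99 and 6.84 (0.40), Aurkb 8.90 and 8.55 (0.71, adjusted p = 0.17), Bub1 6.0 and 6.80, Birc5 6.0 and 6.50, Bub3 13.47 and 13.01, and Mki67 9.09 and 9.79 (-0.48, adjusted p = 0.27). Both Mki67 arrays lay below the controls but far apart from each other.

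The difference between the cytokines does not contain the control arrays, which enter its error only through the spread shared by all conditions. Of the 50 genes, 15 (30%) were lower with IL4 than with IFNγ and 1 (2%) was higher, against 6.20% and 5.83% of all probe sets, with a median difference of -0.51 beside 0.02 over all probe sets. The count of 16 fell to 8 without IL4 replicate 1 and to 8 without IFNγ replicate 2, where 8.66% and 8.54% of all probe sets were called, against 12% with all arrays. Cenpa was the gene that was higher with IL4 (1.54, SE 0.21, adjusted p = 0.00036). Those that were lower and held in every fit without 1 array were Ndc80 (-1.70, adjusted p = 0.0016), Racgap1 (-1.57), Kif15 (-1.42), Mybl2 (-1.19) and Top2a (-1.04). Ndc80 had 5.66 and 5.08 with IL4 and 7.18 and 6.95 with IFNγ, the not stimulated arrays lying between them at 6.57 and 5.95. Ube2c, Ncapg2, Cdc20 and Ccnb2, which were lower than in not stimulated cells with IFNγ, did not pass between the cytokines, with differences of -0.06, 0.04, -0.19 and 0.09 (95% interval for Ube2c -0.93 to 0.81).

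Set against IFNγ, the mean of the CAF CM arrays was lower in 30 of the 50 genes (60%) and higher in 1 (2%), against 7.19% and 8.0% of all probe sets, with a median difference of -1.01 beside -0.01. Ndc80 (-2.17, SE 0.25, adjusted p = 6.1e-05), Ccna2 (-2.00, adjusted p = 0.0015), Kif15 (-1.98), Kif23 (-1.94) and Tpx2 (-1.90) led, and all 6 spindle and cytokinesis genes, 4 of 5 checkpoint genes and 5 of 7 kinetochore genes were lower. Of the 4 anaphase onset genes 0 were called by limma (0 at an unadjusted p under 0.05), among them Ube2c (-0.35, 95% interval -1.11 to 0.40) and Cdc20 (-0.40). Incenp was the gene that was higher (1.14, SE 0.16, adjusted p = 0.00036). Set against IL4, the CAF CM mean was lower in 9 genes (18%) and higher in 2 (4%), against 7.45% and 8.24% of all probe sets, with a median difference of -0.32 beside -0.03. The count of 11 fell to 6 without IL4 replicate 1 and to 5 without IL4 replicate 2, where 10.4% and 11% of all probe sets were called, against 15.7% with all arrays. Cenpa (-2.85, adjusted p = 6.8e-07), Kif23 (-1.65) and Kif20b (-1.39) held in every fit without 1 array. Pttg1 (0.85, adjusted p = 0.0058) and Incenp (0.68, adjusted p = 0.012) were higher with CAF CM than with IL4. Both of these calls were lost without IL4 replicate 1, and that of Incenp also without IL4 replicate 2.

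**Figure D4:**
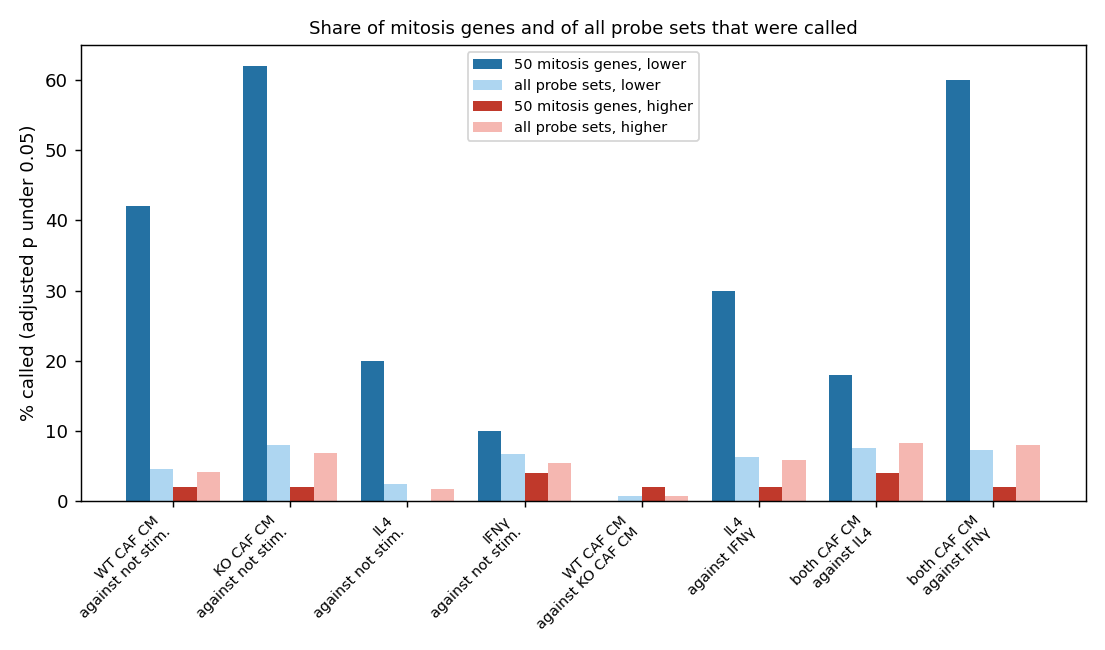
For each of the 8 comparisons (x axis) the bars give the percentage (y axis) of the 50 mitosis genes called lower or higher, in dark colours, beside that of all 22206 probe sets, in pale colours. The genes' share called lower was 42% and 62% with WT and KO CAF CM, 20% with IL4 and 10% with IFNγ, against 4.47%, 8.0%, 2.38% and 6.68% of all probe sets.

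Genes with a CHR in the RefSeq window and genes without it both had negative medians with CAF CM: -1.07 over 34 genes and -0.60 over 9 with WT CAF CM, and -1.30 and -0.82 with KO CAF CM. With IL4 the order was the other way round (-0.64 with a CHR and -0.99 without). With IFNγ the medians were -0.14 and 0.05, and all 5 genes called lower had a CHR, among 34 of 43 genes that did. Mybl2, called higher with IFNγ, had none, and Kif15, also higher, had one. These groups were not tested against each other.

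Around the listed genes, 155 of 162 genes of the same pathway, in 10 groups written from general knowledge, had a probe set. With WT CAF CM 29 (18.7%) were lower and 1 (0.645%) higher, against 4.47% and 4.08% of all probe sets. With KO CAF CM they were 38 (24.5%) and 7 (4.52%), against 8.0% and 6.83%. With IL4 they were 9 (5.81%) and 2 (1.29%), against 2.38% and 1.66%, and with IFNγ 15 (9.68%) and 14 (9.03%), against 6.68% and 5.38%. The median of the 155 was -0.27, -0.42, -0.19 and 0.03 in that order. The groups with the largest numbers of calls with CAF CM were spindle, centriole and kinesin genes (11 of 32 lower with WT and 15 with KO CAF CM, 34.4% and 46.9%) and kinases, phosphatases and cyclin partners of mitotic entry (8 and 6 of 20 lower, 40% and 30%, with 0 and 1 higher). With IFNγ 7 of the 32 (21.9%) were lower and 1 (3.12%) higher, and 3 of the 20 (15%) were lower and 1 (5%) higher. With IL4 3 of the 32 (9.38%) were lower and 1 (3.12%) higher, and 1 of the 20 (5%) was lower. Wee1, the kinase that holds Cdk1 inactive until mitosis, had signals of 9.30 and 9.28 in not stimulated cells, 7.20 and 6.93 with WT and 7.43 and 6.65 with KO CAF CM, 9.47 and 9.11 with IL4, and 9.85 and 9.69 with IFNγ. It was low in all CAF CM arrays and in no other, with differences of -2.23 (SE 0.25, adjusted p = 0.00016) and -2.25 (adjusted p = 9.5e-05). Mastl, or Greatwall, which keeps the opposing phosphatase PP2A off, fell by 1.19 with WT CAF CM, 1.34 with KO CAF CM and 0.92 with IL4. The augmin subunit Haus8 fell with both CAF CM (-1.64 and -1.67) and with IFNγ (-1.52) but rose with IL4 (1.46, adjusted p = 0.0029). Kif3a, a kinesin of intracellular and ciliary transport, was the only one of the 155 called between the media (1.37 higher with WT CAF CM, adjusted p = 0.033), and was 3.78 lower with IFNγ than in not stimulated cells.

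Of 18 centromere and CENP-A loading genes outside the list, 3 (16.7%) were lower with each CAF CM, against 4.47% and 8.0% of all probe sets, and 2 (11.1%) higher with IFNγ, against 5.38%. Mis18a, needed to load CENP-A, fell by 1.34 with WT CAF CM, 1.53 with KO CAF CM and 0.86 with IL4, and Cenpq, of the constitutive centromere complex, fell by 1.11 and 1.27 with CAF CM and was 1.07 higher with IFNγ (adjusted p = 0.032). Of 17 outer kinetochore and checkpoint partners 0 were called lower by limma with WT CAF CM (3 at an unadjusted p under 0.05), against 4.47% of all probe sets. With KO CAF CM 2 (11.8%) were lower and 2 (11.8%) higher, near the 8.0% and 6.83% of all probe sets. Zwint was among the higher (0.92, adjusted p = 0.018). Of 15 cohesin genes and regulators 1 (6.67%) was lower with WT and 3 (20%) with KO CAF CM, against 4.47% and 8.0% of all probe sets. The latter included Cdca5, or sororin, which keeps sister chromatids together (-1.23, adjusted p = 0.021). Neither of the 2 further condensin subunits was called. Of 17 APC/C subunits and partners 1 (5.88%) was lower with WT and 2 (11.8%) with KO CAF CM, shares near those of all probe sets, Anapc15 among them (-1.68 and -1.52), and the conjugating enzyme Ube2s, which extends the chains that Ube2c starts, was 1.23 higher with KO CAF CM (adjusted p = 0.0017). With IFNγ 3 of the 17 (17.6%) were lower and 1 (5.88%) higher, against 6.68% and 5.38% of all probe sets.

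Of 9 G1 cyclins and kinases, which act before S phase, 3 (33.3%) were higher with IFNγ and 0 lower, and of 19 E2F, MuvB and pocket proteins 4 (21.1%) were higher and 2 lower, against 5.38% of all probe sets higher and 6.68% lower. With KO CAF CM 3 of the 9 G1 genes (33.3%) were also higher and 1 (11.1%) lower, against 6.83% and 8.0% of all probe sets. With WT CAF CM 1 (11.1%) was higher and 2 (22.2%) lower, against 4.08% and 4.47%. With IL4 0 were higher and 1 (11.1%) lower, against 1.66% and 2.38%. These are small counts, and the groups were not tested. Cdc25a, a phosphatase called higher with KO CAF CM, was counted both in this G1 group and in the group of mitotic entry. Ccnd2, cyclin D2, had signals of 5.41 and 5.60 in not stimulated cells and 8.62 and 10.49 with IFNγ, 4.05 higher (SE 0.48, adjusted p = 0.00014), and lay between 4.85 and 5.65 on the other 6 arrays. Ccne1, cyclin E1, had 6.18 and 6.90 in not stimulated cells and 9.84 and 9.52 with IFNγ, 3.14 higher (SE 0.26, adjusted p = 7.7e-06). Rbl1, the pocket protein p107, a subunit of the repressing DREAM complex, had 9.15 and 9.03 in not stimulated cells and 12.78 on both IFNγ arrays, 3.69 higher (SE 0.18, adjusted p = 1.2e-07). E2f8, a repressor of the E2F family, had 9.75 and 9.36 in not stimulated cells and 12.35 and 11.95 with IFNγ, 2.60 higher (SE 0.25, adjusted p = 3e-05), and E2f2, an activator of that family, was 1.80 higher (adjusted p = 0.0079). For Ccnd2, Ccne1, Rbl1 and E2f8 both IFNγ arrays lay above every array of the other conditions, and the differences of IL4 from IFNγ were -4.20, -2.94, -2.93 and -3.82 (adjusted p = 8.3e-05, 9.8e-06, 5.5e-07 and 1e-06). With IL4, Rbl1 (9.91 and 9.79) was itself called higher than in not stimulated cells, and E2f8 (8.40 and 8.27) lower. E2f2 fell with both CAF CM (-1.77 and -2.66, adjusted p = 0.012 and 0.00055), as did the E2F partner Tfdp2 (-2.06 and -2.97), which was also lower with IFNγ (-1.58, adjusted p = 0.031).

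Ccnd3, cyclin D3, was higher with WT CAF CM (1.74), KO CAF CM (1.68) and IFNγ (1.67), and lower with IL4 (-1.29, adjusted p = 0.0085). Its signals were 11.95 and 11.88 in not stimulated cells, 13.86 and 13.44 with WT and 13.90 and 13.28 with KO CAF CM, 13.66 and 13.50 with IFNγ, and 10.65 and 10.61 with IL4. Of 7 CDK inhibitors 0 were called higher by limma in the comparisons with not stimulated cells (at an unadjusted p under 0.05, 0 higher with WT CAF CM, 1 with KO CAF CM, 1 with IL4 and 0 with IFNγ). Of all probe sets, 1.66% to 6.83% were called higher in these comparisons, so 0 of 7 lies near the background. Cdkn2c, p18, fell by 0.99 with WT and 1.35 with KO CAF CM, and Cdkn1b, p27, by 1.51 with KO CAF CM and 1.25 with IL4.

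**Figure D5:**
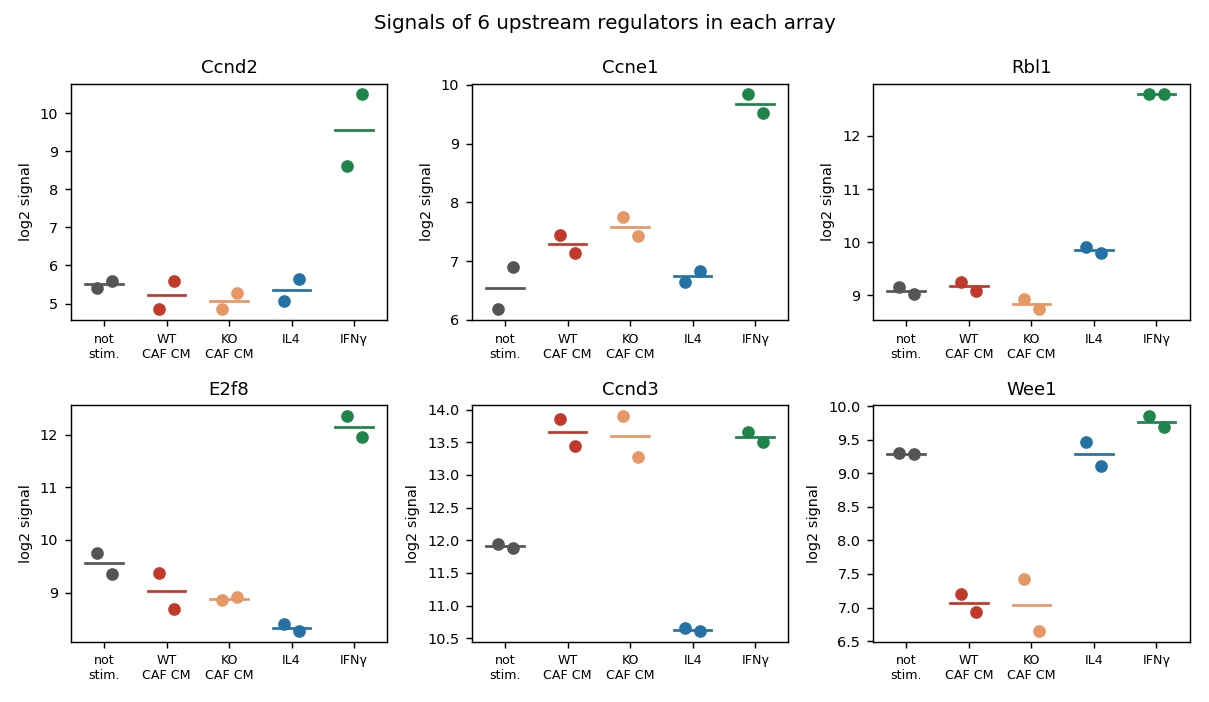
The log2 signal (y axis, which does not start at 0) of 6 regulators outside the list of 50 is plotted by condition, with a point for each of the 2 arrays and a bar at their mean. Ccnd2, Ccne1, Rbl1 and E2f8 were highest with IFNγ, Ccnd3 was high with CAF CM and IFNγ and low with IL4, and Wee1 was low with both CAF CM.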

How the data were processed

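Total RNA (100 ng) of BMDMΦ was hybridised to Clariom S arrays, 10 in all and 2 for each of 5 conditions. The authors deposited log2 signals made by RMA, which corrects background, normalizes across arrays and summarizes each probe set, rounded to 2 decimals. The submitters' processing notes name RMA and limma without versions, and the study's methods name the Transcriptome Analysis Console for differential expression. The deposited values were not changed, and 0 columns were set aside. Arrays have no read depth, and 2 arrays per condition limit the precision.

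Symbols came from the platform annotation: 19572 of 22206 probe sets carry 1 symbol and 2634 are unnamed here. Using limma 3.58.1 (R 4.3.3), each probe set was given 1 mean for each condition over the 10 arrays, with 5 residual and 6.43 prior degrees of freedom, and tested two-sided with Benjamini-Hochberg adjustment over all probe sets in each of 8 comparisons and a threshold of 0.05. It was tested on simulated data. Genes, groups and markers were chosen with earlier results of these data known. Values of every array are given for a fixed set of marker genes, for the 3 called genes with the largest difference in each direction, for called genes opposite to most, and for the 5 smallest p-values between the media; a few more genes named by value were chosen after their values were seen. Titles carry the same 2 numbers in every condition, used as a block only as an alternative. Alternatives covered dim probe sets, arrays in the fit, the block, moderation, array weights, quantile normalization, centring, a 2-fold limit, 1 probe set per gene, an unmoderated equal-variance test of each gene alone and leaving out each array. Promoters are RefSeq sequences of GRCm38.p6 (Python 3.11.15, pandas 2.3.3), and figures were drawn with matplotlib 3.10.9.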

Additional observations from a re-analysis of the deposited data

How the results depend on the processing

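The counts of called mitosis genes stayed within 1.5 times of those reported when dim probe sets were left out, only the compared arrays were fitted, moderation or array weights were changed, values were quantile normalized or median centred, or 1 probe set per gene was kept. With the replicate block they were 23 for WT CAF CM, 32 for KO CAF CM, 12 for IL4, 7 for IFNγ (each against not stimulated cells), 1 (WT against KO CAF CM), 17 (IL4 against IFNγ), 11 (CAF CM against IL4) and 33 (CAF CM against IFNγ). The numbers in the titles are not known to mark shared mice or days, and deviations of same-numbered arrays correlated at -0.049 to 0.194 over 10 pairs of conditions, 3 of them over 0.1, so the arrays were not treated as paired, and whether they share a mouse or day is not known. Without each array in turn the counts ranged from 12 to 22 for WT CAF CM, 24 to 32 for KO CAF CM, 3 to 12 for IL4, 3 to 8 for IFNγ, 8 to 18 (IL4 against IFNγ), 5 to 13 (CAF CM against IL4) and 22 to 34 (CAF CM against IFNγ), and the count was 1 throughout for WT against KO CAF CM. A group left with 1 array was assumed to vary like the others. Requiring 2-fold left 6 genes in CAF CM against IL4. An unmoderated equal-variance test of each gene alone called 0 genes after adjustment in the 6 comparisons of 2 arrays with 2, where it called 15 for WT CAF CM, 22 for KO CAF CM, 12 for IL4, 6 for IFNγ, 3 (WT against KO CAF CM) and 10 (IL4 against IFNγ) unadjusted, and 2 and 6 after adjustment in CAF CM against IL4 and IFNγ; it has 2 residual degrees of freedom in the former.

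Of 4873 single-gene values under the alternatives, 4234 kept direction and side of the threshold, 598 kept direction but lost the threshold, 28 gained it and 13 changed sign. All 13 belong to differences that were not called. Without 1 array, differences from not stimulated cells ranged from -0.86 to 0.04 (Birc5, WT CAF CM), -0.075 to 0.155 (Bub3, WT CAF CM), -0.575 to 0.295 (Cdk1, IFNγ), -0.74 to 0.06 (Bub1, IFNγ) and -0.04 to 0.46 (Birc5, IFNγ). Those between WT and KO CAF CM ranged from -0.13 to 0.32 (Top2a), -0.35 to 0.43 (Ccnb2), -0.46 to 0.44 (Birc5, 0.005 with median centring) and -0.22 to 0.01 (Bub3). The cause was not tested.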
